A study of Rattus norvegicus with 34 samples.

Results

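Card B of a TaqMan miRNA array was measured in rat tissues, and 73 of its positions were detected in every one of 8 tissues, namely heart, skeletal muscle, kidney, liver, lung, small intestine, spleen, and prostate. The members were the positions with a CP of at most 35 in all 8 libraries, out of 376 positions considered (19.4%), after 8 repeated positions (9 to 12 and 33 to 36) were left out. The members were thus chosen by the measured CP values, and their levels, spread, and leads are given as a description without a test. The tissues came from untreated 4-week-old Sprague-Dawley rats, without preamplification. The methods name male and female rats, but not the sex behind each tissue. Each tissue had 1 library per card, and how many animals a library pooled is not given in the sources used here. The 8 tissues were chosen because the order of their CP values over the card agreed, and the other libraries of card B, including pancreas, salivary gland, lacrimal gland, and bile duct, were left out for that reason. They belong to a series of 12 tissues and 5 microdissected compartments on 34 cards, made to profile miRNAs of organs built from tubules.

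miRNAs are short noncoding RNAs that repress their target messenger RNAs, and many of them are abundant in some tissues and scarce in others. In a TaqMan assay a miRNA is reverse transcribed with its own primer and amplified with a fluorescent probe. The crossing point (CP) counts the PCR cycles needed for the signal to pass a threshold. A lower CP thus comes with more template, and a well that never amplified has the value 50. RNAs that every tissue contains are of interest because a difference between tissues can then be measured on both sides, without undetected wells. The files give each position a number but no miRNA. The members are therefore named by position, no sequence is shown, and neither the roles of the miRNAs nor the tissue labels could be checked against known markers. In whole tissue, fewer cells of a type and less RNA per cell cannot be told apart.

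Many of the 73 positions repeated another position of the same card. Positions 97 to 240 returned, in the same order, 144 positions further on, at 241 to 384. In each of the 8 tissues the Spearman correlation of CP between wells 144 apart was between 0.687 (prostate) and 0.958 (spleen), the highest of the 191 offsets compared within positions 97 to 384. The highest value at any other offset was between 0.232 and 0.406. Where both wells were detected, they differed by a median of 0.256 cycles in lung and 0.780 cycles in prostate, the lowest and highest of the 8 tissues. Only 1 well of the pair was detected in 10 (lung and spleen) to 19 pairs (liver) per tissue. In prostate this held for 15 pairs, against 28 with both wells detected. Positions 13, 14, 37, and 38 likewise gave similar CP values, with a median SD of 0.175 cycles over the tissues, as did positions 55, 56, 79, and 80 (0.129). These repeats were found from the values, and the files do not say whether the wells hold the same assay.

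**Figure D1:**
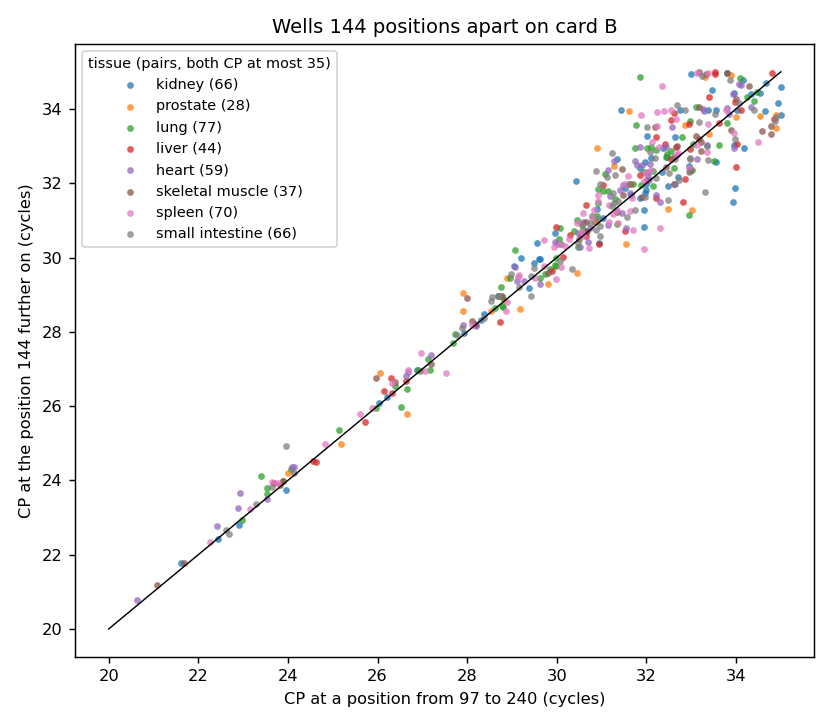
CP at positions 97 to 240 (x axis, cycles) against CP at the position 144 further on (y axis, cycles), 1 point per tissue and pair with both wells at a CP of at most 35, and the line of equal values. Points lay along the line in all 8 tissues, most tightly by the median difference in lung (0.256 cycles) and most loosely in prostate (0.780 cycles).

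By these repeats, 40 of the 73 positions formed 20 pairs with both wells in the set, 8 positions formed the groups of 4, and 4 positions (102, 180, 185, and 218) had their repeat outside the set. In prostate, position 102 had a CP of 33.6, while its repeat at 246 never amplified. The other 21 positions had no repeat in these layouts, so that the 73 positions stood for 47 rows by these layouts. Even among these, positions 86 and 92 differed by a root mean square of only 0.0895 cycles over the tissues, and positions 90 and 96 by 0.338 cycles. Position 90 differed from 86 and from 92 by 0.378 cycles each, 41 from 47 by 0.477, and 31 from 67 by 0.494. The 47 rows may thus still hold alike wells. The repeats gave an error for wells of 1 library, though none for animals or RNA extractions. Within the 20 pairs the well SD was 0.397 cycles over 160 differences, of which 77.5% were within 0.5 cycles and 12 exceeded 1 cycle. The well SD was 0.776 cycles in prostate and between 0.219 (heart) and 0.402 cycles (kidney) in the other 7 tissues. Heart at position 13 stood apart within its group of 4, with a CP of 29.8 where positions 14, 37, and 38 gave 26.8, 26.8, and 26.9. Prostate also varied in this group, from 28.1 to 30.2 (SD 0.859).

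The number of detected positions on card B ran from 114 in prostate to 218 in lung. Prostate therefore limited the set most, and 17 positions were missed in prostate alone, 10 in skeletal muscle alone, and 3 in liver alone. The Spearman correlation between the 8 libraries over the 376 positions was 0.610 to 0.878 for each pair of tissues, which is no finding, since the libraries were chosen for this agreement. The median CP of the 73 positions was 29.8 in kidney, 30.6 in prostate, 27.2 in lung, 30.0 in liver, 29.0 in heart, 30.7 in skeletal muscle, 27.9 in spleen, and 29.1 in small intestine. This median was subtracted from each library, and a scaled CP below 0 means earlier than the median member. At the limit, positions 18 and 218 were just inside with a highest CP of 34.996 and 34.994, both in kidney. Positions 227 and 171 were just outside at 35.02 and 35.11, both in prostate.

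The mean CP over the 8 tissues spanned 10.2 cycles among the members, from 23.2 to 33.4, with a median of 29.4. Assays may amplify with different efficiency, so this order describes the wells and not amounts of RNA. The 5 earliest positions were 222, 55, 366, 56, and 79, which belong to 1 pair and 1 group of 4. The group of 55, 56, 79, and 80 was early in every tissue, with its mean scaled CP between -6.99 in liver and -4.78 in skeletal muscle. Within a library, its 4 wells had a median SD of 0.129 cycles. The 5 latest positions were 218, 18, 102, 72, and 301, with mean CP from 32.7 to 33.4. Of the members, 18 had a CP above 34 in at least 1 tissue, close to the limit that chose them. The spread over tissues was a median SD of 1.37 cycles in the 24 earliest members and 0.963 cycles in the 25 latest. The 25 latest include position 2, which had the highest SD of all (2.35 cycles). The limit at 35 caps late values, and its part in this difference was not tested.

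**Figure D2:**
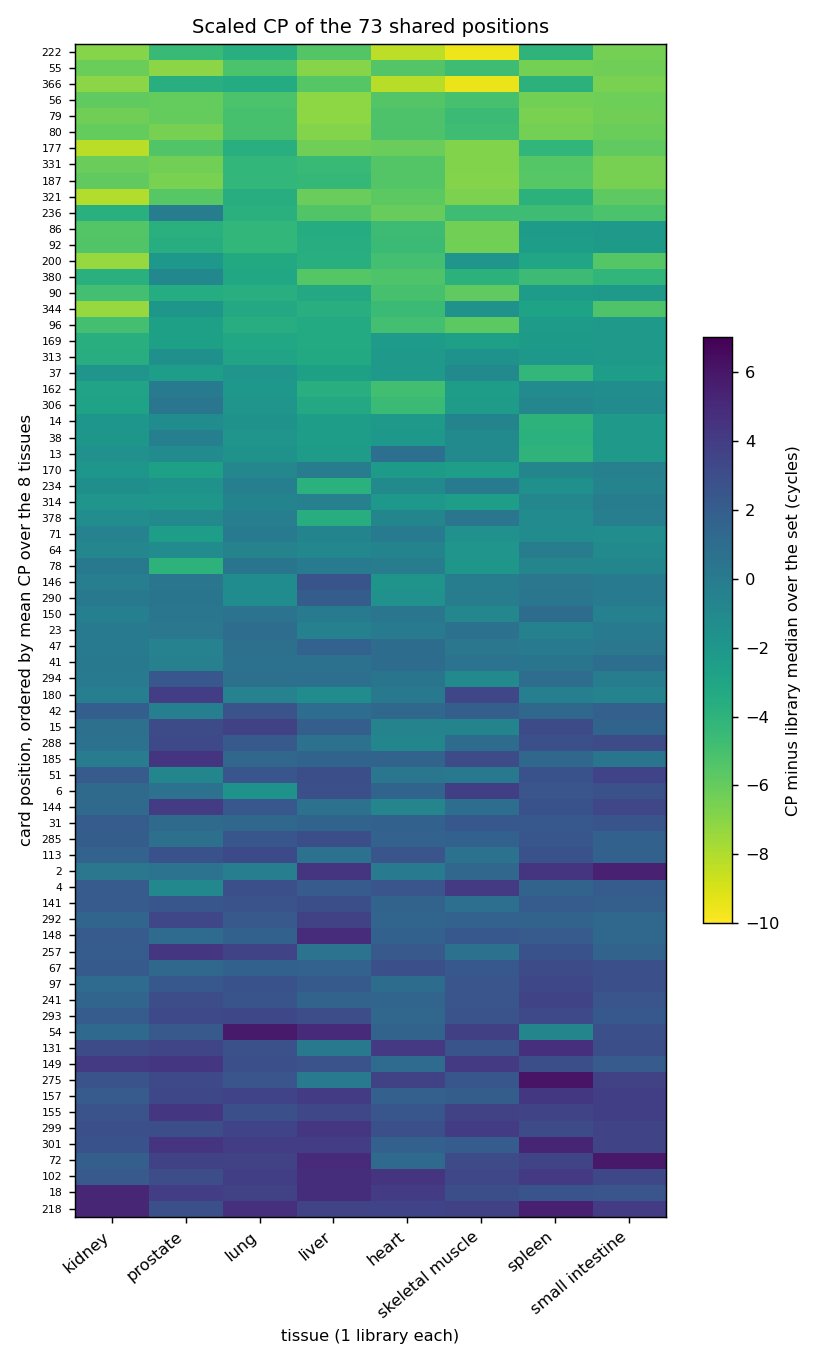
Scaled CP (CP minus the library's median over the set, cycles; lighter is earlier) of the 73 shared positions in 8 tissues with 1 library each, ordered by mean CP from the earliest at the top. Most of each row keeps 1 shade, since mean CP spanned 10.2 cycles while the median SD over tissues was 1.09 cycles.

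The SD of the scaled CP over the 8 tissues had a median of 1.09 cycles and ran from 0.453 to 2.35 cycles. The difference between the earliest and latest tissue was 1.38 cycles at the least and 6.49 at the most. The well SD of 0.397 cycles over the 20 pairs was below all 73 SDs. Over all pairs of wells 144 apart with both detected, it was 0.372 to 0.727 cycles per library (median 0.502), past the lowest SDs. Position 293 had an SD of 0.686 cycles, below the well SD of its own pair (0.713). The well SD leaves out the variation between animals, extractions, and libraries, so it does not separate tissues from libraries.

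The steadiest positions were 41, 23, 64, 31, 299, and 169, with SDs of 0.453, 0.475, 0.5003, 0.531, 0.548, and 0.552 cycles. At position 41 the CP was 29.9 in kidney, 30.1 in prostate, 27.9 in lung, 30.6 in liver, 30.0 in heart, 31.2 in skeletal muscle, 28.3 in spleen, and 30.0 in small intestine. After scaling these values lay between -0.431 in prostate and 0.985 in heart. The 8 tissues of position 41 were thus within 1.42 cycles of each other, and lung and spleen were the earliest only before scaling. Of the 6 positions, 2 have a repeat in the set. Position 155, the repeat of 299, had an SD of 0.645 cycles, and position 313, the repeat of 169, had 0.759 cycles. Over the 8 tissues the scaled CP of 299 and 155 correlated at a Pearson r of only 0.211, the lowest of the 20 pairs, while 169 and 313 correlated at 0.819. At 299 the order of the tissues was therefore not the order in its repeat, although both wells varied little.

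The most variable positions were 2, 366, 54, 222, 180, 344, 200, and 236, with SDs from 2.35 down to 1.82 cycles. Among these, 222 and 366 are a pair, and so are 200 and 344.

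Position 222 was earliest in the striated muscles. Its CP was 21.1 in skeletal muscle, 20.6 in heart, 22.9 in kidney, 22.7 in small intestine, 24.6 in liver, 26.0 in prostate, 23.8 in spleen, and 23.5 in lung. Scaled values were -9.59 in skeletal muscle and -8.34 in heart, followed by -6.94 in kidney, with -3.68 in lung as the latest. The repeat at 366 gave -9.47 in skeletal muscle, -8.19 in heart, -7.05 in kidney, and -3.43 in lung. The 2 wells correlated at r = 0.991 over the 8 tissues, and skeletal muscle was earliest and lung latest in both. Without scaling, heart rather than skeletal muscle was the earliest, by 0.433 cycles at position 222. The pattern most like it outside the pair was that of position 15 (r = 0.982 with 222 and 0.983 with 366, 8 tissues). At position 15 the scaled CP was -0.697 in skeletal muscle, -0.623 in heart, and 0.731 in kidney, the next tissue, with 3.73 in lung.

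The pair of 200 and 344 was earliest in kidney. At position 344 the CP was 22.4 in kidney, 23.8 in small intestine, 24.4 in heart, 26.4 in liver, 24.0 in lung, 25.0 in spleen, 28.6 in prostate, and 29.0 in skeletal muscle. The scaled CP was -7.41 in kidney and -5.32 in small intestine, the tissue nearest to it, and -1.68 in skeletal muscle. The repeat at 200 gave -7.40, -5.49, and -1.88 in these 3 tissues. The lead of kidney was 2.08 cycles at 344 and 1.90 at 200, so that a threshold of 2 cycles fell between repeats that differed by less than the well SD. At 344 the lead was 1.41 cycles with the mean of the set as the scale, 1.34 with the mean of the 8 repeated positions left out, and 1.38 without scaling, under 2 cycles in each case. The 2 wells correlated at r = 0.999.

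At position 2, the most variable one, the tissues fell on 2 sides of a gap of 3.02 cycles. The CP was 26.9 in lung, 29.0 in heart, 30.1 in kidney, 31.1 in prostate, 32.05 in skeletal muscle, 34.4 in liver, 32.3 in spleen, and 34.6 in small intestine. Scaled values were between -0.285 and 1.39 in the first 5 of these tissues. They were 4.41 in liver, 4.46 in spleen, and 5.45 in small intestine. This position has no repeat found by layout. Its nearest patterns were those of positions 72 (r = 0.753) and 86 (r = 0.724).

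At position 180, prostate and skeletal muscle were set apart from the other 6 tissues by a gap of 3.25 cycles. The CP was 34.5 in prostate and 34.01 in skeletal muscle, against 29.6 in kidney, 29.1 in heart, 28.7 in liver, 28.5 in small intestine, 27.5 in spleen, and 26.6 in lung. Its repeat at 324 was outside the set, as its CP of 35.1 in prostate and 35.4 in skeletal muscle passed the limit. This well gave scaled values of 4.58 in prostate and 4.70 in skeletal muscle. The other 6 tissues were between -1.77 and 0.761 there, so both wells separated the same tissues. This is no independent check, since the late prostate and skeletal muscle values left 324 out, and both wells come from the same libraries. Position 54, without a repeat, was earliest in spleen with a CP of 27.1 and a scaled value of -0.751, against 1.20 in kidney and 5.74 in lung. Its nearest patterns were positions 299 (r = 0.734) and 37 (r = 0.587).

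A position was counted as led by a tissue when it came there by 2 cycles or more before the next tissue on the scaled CP, a gap which is 4-fold if every cycle doubles the template. In all, 8 of the 73 positions were led in this way, against 12.2% of the 376 positions with undetected wells set to 35. The 376 include 121 positions detected in none of the 8 tissues, which could not be led and lower each share over the card. Liver led 4 of them, prostate 2, and kidney and lung 1 each, where the shares over the card were 1.06%, 2.93%, 1.33%, and 1.33%. None of the 73 was led by 3 cycles, against 3.46% over the card. Undetected wells were set to 35 before the library median was subtracted. Their scaled value was thus highest in lung (median 27.2) and lowest in skeletal muscle (median 30.7). How far this moved the shares over the card was not tested. Heart, skeletal muscle, spleen, and small intestine led none by 2 cycles at the median scaling. Spleen led position 54 by 1.95 cycles at that scaling, by 2.83 with the mean of the set, and by 3.44 without scaling. With the mean of the 8 repeated positions left out, this lead was 1.07 cycles.

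The 4 positions led by liver were 2 pairs of repeats. At position 234 the CP was 26.1 in liver, 28.9 in prostate, 26.3 in spleen, 28.4 in kidney, 27.9 in heart, 28.5 in small intestine, 26.9 in lung, and 30.7 in skeletal muscle. The scaled value of -3.89 in liver was 2.22 cycles below prostate, the next tissue at -1.67. In the repeat at 378 liver led by 2.26 cycles. At position 131 the CP was 30.1 in liver, 30.0 in lung, 32.1 in small intestine, 32.6 in spleen, 32.96 in kidney, 33.1 in heart, 33.2 in skeletal muscle, and 33.99 in prostate. Liver led there by 2.46 cycles after scaling, and by 2.45 cycles in the repeat at 275. Liver thus led in both wells of both pairs. Over the whole card liver led 4 positions, or 1.06% of 376, and all 4 are members.

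Position 4 was led by prostate by 2.48 cycles. Its CP was 29.6 in prostate, 29.4 in spleen, 30.1 in lung, 31.2 in small intestine, 31.5 in heart, 31.96 in kidney, 32.1 in liver, and 34.8 in skeletal muscle. Prostate was thus not the earliest before scaling, where spleen came first by 0.219 cycles. Position 78 was led by prostate by 2.01 cycles, with a scaled CP of -3.98 in prostate and -1.97 in skeletal muscle. Neither position has a repeat, and prostate was the library with the fewest detected positions, the largest well SD, and the latest amplified well (CP 44.6, against 37.3 to 41.8 in the other 7). The part of these in the leads of prostate was not tested.

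Position 6 was led by lung, with a CP of 25.6 in lung against 30.4 in spleen, 30.5 in heart, 30.99 in kidney, 31.2 in prostate, 31.9 in small intestine, 32.9 in liver, and 34.5 in skeletal muscle. The lead was 4.81 cycles without scaling and 2.30 cycles with it, since lung had the earliest median of the 8 libraries. Scaled to the 8 repeated positions, it was 0.545 cycles, under the threshold.

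**Figure D3:**
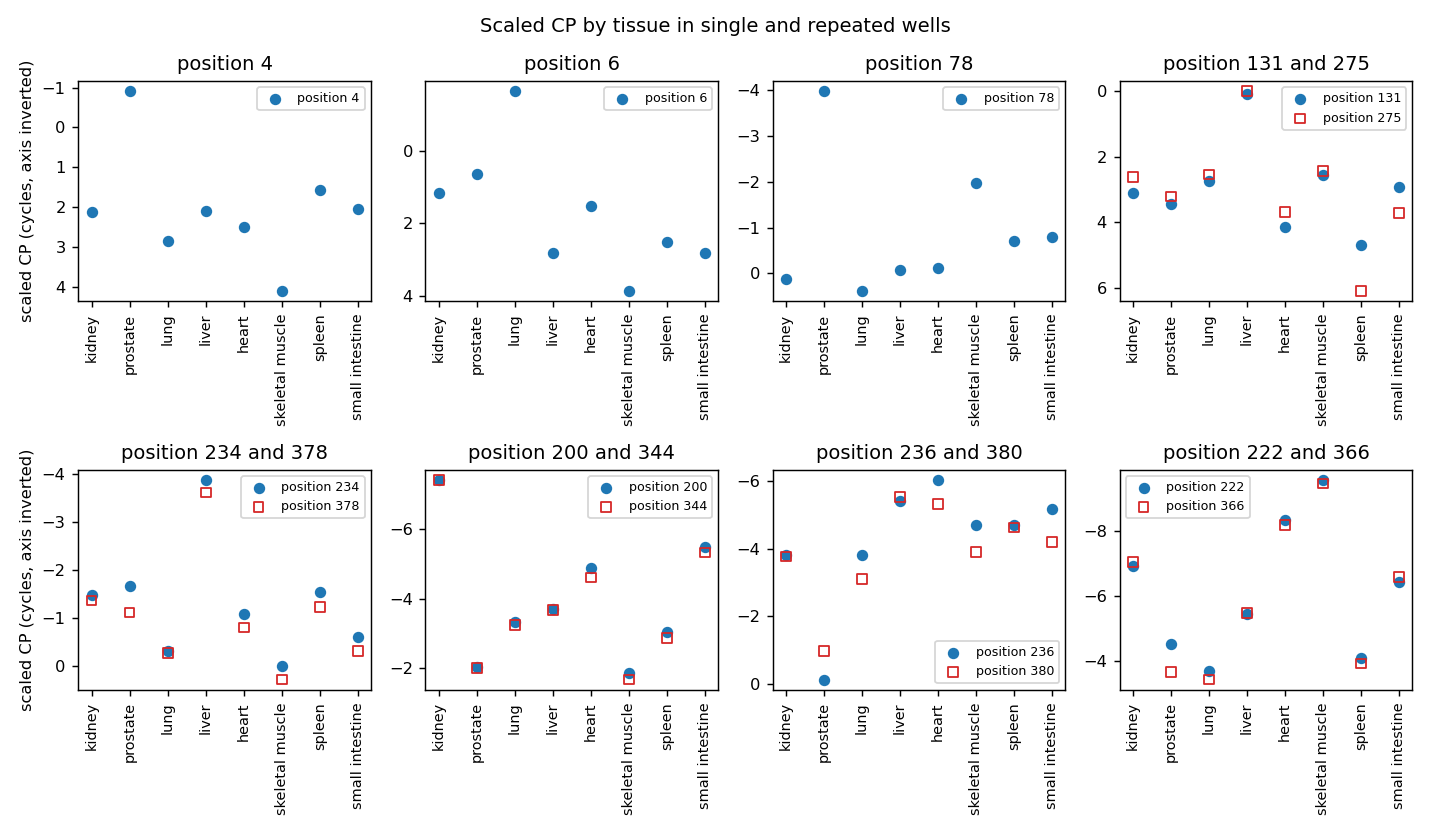
Scaled CP (cycles, axis inverted so that earlier is higher) by tissue for the positions led by 1 tissue, for the pair 236 and 380 trailed by prostate, and for the pair 222 and 366; circles and squares are the 2 wells of a pair, 1 library per tissue. The wells of a pair coincide in some tissues and differ in others, as in spleen at 131 (4.69) and 275 (6.10), and liver stands above the other tissues in both wells at 131 and 275 and at 234 and 378.

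Conversely, 5 of the 73 positions came at least 2 cycles later in 1 tissue than in each of the others, against 3.99% of the 376 positions. The 121 positions detected in none of the tissues could not trail by 2 cycles either. Prostate and liver trailed 2 each and spleen 1, where the shares over the card were 1.06%, 1.06%, and 0.532%, and 1 trailed by 3 cycles (0.798% over the card). Since the same values chose the members, nothing is read from these shares. At position 236 the CP was 30.4 in prostate, while it was 26.0 in kidney, 26.0 in skeletal muscle, 24.6 in liver, 24.0 in small intestine, 23.4 in lung, 23.1 in spleen, and 22.9 in heart. Prostate trailed by 3.69 cycles there after scaling and by 2.13 cycles in the repeat at 380. The other 3 positions passed 2 cycles in 1 well only. Liver trailed by 2.26 cycles at 146 and by 1.55 at its repeat 290, and by 2.49 cycles at 148 but 0.326 at its repeat 292. Spleen trailed by 2.39 cycles at 275 and by 0.532 at 131. The prostate pair was thus the only one with 2 cycles in both wells, and prostate is also the library with the largest well SD.

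Repeats generally kept the pattern of a position. The Pearson r of a pair over the 8 tissues had a median of 0.942 (20 pairs, from 0.211 to 0.999), the 2 wells sharing a library and thus its scaling. The earliest tissue was the same in both wells in 16 of the 20 pairs and the latest in 14. With repeats averaged to 1 value, 5 of 47 rows were led by 2 cycles: the 2 liver pairs by 2.51 and 2.55 cycles, position 4 by prostate, position 6 by lung, and position 54 by spleen by 2.25 cycles. Only prostate at 236 and 380 still trailed, by 3.12 cycles. The leads also depended on the scale. With the mean of the 8 repeated wells as the scale, 14 positions were led, 11 of them by prostate and 3 by liver, and none trailed. The mean CP of those wells minus the set median was -5.67 cycles in prostate and between -8.26 (heart) and -6.47 cycles (liver) in the other tissues. Those wells fell into unlike groups. Positions 9, 10, 33, and 34 lay between -6.17 (heart) and -0.433 cycles (prostate) from the set median. Positions 11, 12, 35, and 36 lay between -13.3 (skeletal muscle) and -10.3 cycles (heart), with prostate at -10.9. Without scaling 3 positions were led, 2 by lung and 1 by spleen. The lead of liver at 131 and 275 was past 2 cycles with the median, the mean, and the repeated wells as the scale, and was absent without scaling, where lung was first by 0.154 cycles at 131. At 234 and 378 the lead of liver was 1.91 and 2.03 cycles with the mean, 1.43 and 1.72 with the repeated wells, and 0.181 and 0.229 without scaling. Prostate led position 78 by 2.51, 4.54, and 0.563 cycles in the same order of scales, and position 4 by 2.43 and 3.81 cycles with the mean and the repeated wells. Of the trailing positions, prostate at 236 trailed by 2.87 cycles with the mean, 1.23 with the repeated wells, and 4.41 without scaling.

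Tissues were then compared over all 73 positions by the SD of the difference in scaled CP, a distance that scaling does not change. It was between 1.16 and 2.17 cycles over the 28 pairs of tissues, with a median of 1.68. Spleen and small intestine were closest (1.16), followed by kidney and heart (1.19), and prostate and liver were farthest apart (2.17). Heart and skeletal muscle had a distance of 1.39, the fifth lowest. With repeats averaged to 47 rows, kidney and heart came first (1.11), then spleen and small intestine (1.13), then heart and skeletal muscle (1.40), so the order of the closest pairs depended on counting repeats. On card A, whose wells did not enter the choice of the 73 positions, 138 of 380 positions passed the same limit in the same 8 tissues. They too were chosen by their CP values, and only positions 11, 12, 35, and 36 were left out. Their median SD over tissues was 1.10 cycles, against 1.09 for the 73 positions. The median distance on card A was 2.54 cycles. There heart and skeletal muscle were the closest pair (1.77), while spleen and small intestine (2.78) ranked 17 and kidney and heart (3.06) ranked 21. The tissue nearest to a given one was the same on both cards for lung (kidney) and skeletal muscle (heart), 2 of the 8. Prostate had the highest mean distance to the others on card B (1.92) and skeletal muscle on card A (3.01). With single libraries, none of these orders has a replicate check.

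**Figure D4:**
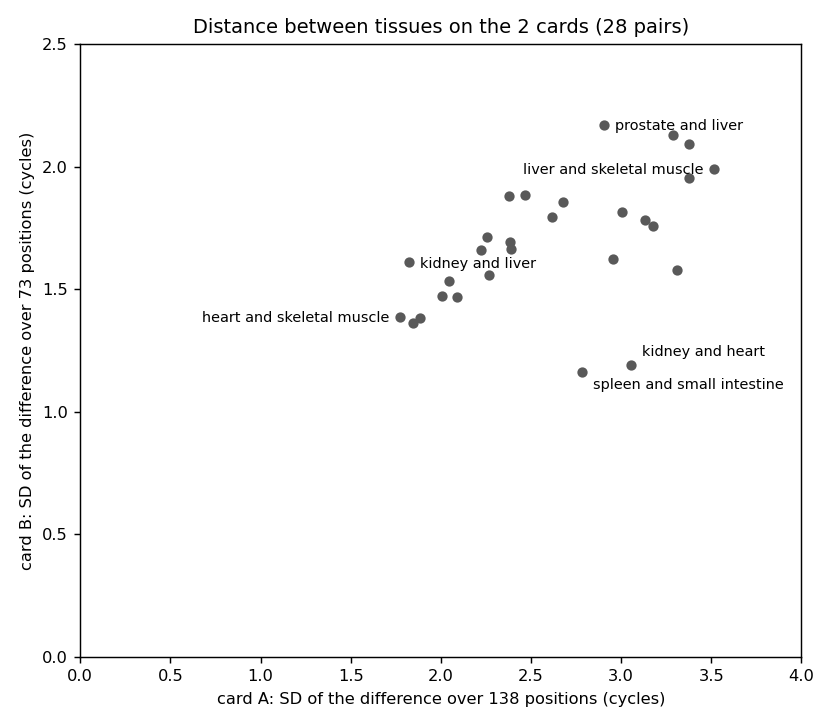
SD of the difference in scaled CP between 2 tissues (cycles) over 138 positions of card A (x axis) and over the 73 positions of card B (y axis), 1 point per pair of tissues. Heart and skeletal muscle are the closest pair on card A (1.77) and the fifth on card B (1.39), and spleen and small intestine (1.16) and kidney and heart (1.19) are the lowest on card B, in the opposite order once repeats are averaged (1.13 and 1.11).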

How the data were processed

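Expression of miRNAs was measured on TaqMan cards A and B. The authors read CP values in RQ Manager and the SDS software, and the deposited values are unnormalized numbers of cycles with 50 for no amplification; software versions are not given in the sources used here. The labelling text of the samples names a human kit, and the series description a rodent kit. The detection limit of CP 35 is that of the methods.

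Positions 9 to 12 and 33 to 36 were left out, and each library was scaled to its median over the set. The paper took U6 small nuclear RNA on the array as its endogenous control, so the scale here differs from that reference. Which positions hold this control is not given in the sources used here. The positions, lists, and tests were chosen with earlier results of these data known. Positions named were the 5 earliest and 5 latest, the 6 steadiest and 8 most variable, the largest lead and lag of each tissue past 2 cycles, and the nearest patterns of the 4 most variable. The repeats 144 positions apart, and positions named for them (15, 47, 67, 86, 90, 92, 96, and the repeats themselves), were chosen after their values were seen. With 1 library per tissue, no test between tissues was made. The depth of a library has no count in these data, and the number of wells limits the precision. The search for leads was also run on simulated data with planted leads and lags, as a check of the calculation only. Because those leads were planted, nothing about the leads reported here is concluded from it. Limits of 32 and 38, other scales, gaps of 1 and 3 cycles, leaving out each tissue, and averaging repeats were tried as alternatives. Calculations used scipy 1.17.1 and pandas 2.3.3 with numpy 2.4.6 under Python 3.11.15, and plots matplotlib 3.10.9.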

Additional observations from a re-analysis of the deposited data

How the results depend on the processing

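The set held 73 positions, and 38 at the stricter limit of 32, which follows from the rule. It held 95 positions at a limit of 38, and 47 rows with repeats averaged, an alternative chosen after seeing the data. Positions led by 1 tissue numbered 8, and 3 without scaling, 14 with the repeated wells as the scale, 0 with a gap of 3 cycles, 25 with a gap of 1 cycle, and 5 with repeats averaged. With a limit of 32 they numbered 6, and with a limit of 38 they numbered 12. Positions trailed by 1 tissue numbered 5, and 3 with a limit of 32, 10 with a limit of 38, 10 without scaling, 0 with the repeated wells as the scale, 1 with a gap of 3 cycles, 13 with a gap of 1 cycle, and 1 with repeats averaged. The distance of heart and skeletal muscle, 1.39 cycles, was 2.14 with a limit of 38, where it ranked 17 of 28. Apart from the gaps and the limit of 32, the cause was not tested.

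With each tissue left out in turn, the set held 73 to 90 positions (90 without prostate), the median SD was 0.993 to 1.17 cycles, 7 to 10 positions were led, 4 to 9 trailed (9 without skeletal muscle), and the distance was 1.35 to 1.40 cycles. No paired analysis was possible because a tissue was measured in a single library per card. Single libraries and repeats within 1 card give no error between animals, and late wells are limited by the detection limit.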

Other observations

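The repeat of wells 144 positions apart was looked for in all 17 libraries of both cards after it was seen in the 8 tissues. On card B the Spearman correlation at this offset was between -0.0200 and 0.148 in the other 9 libraries (pancreas, salivary gland, lacrimal gland, bile duct, and the 5 microdissected compartments). In these 9 libraries it was not the highest of the 191 offsets, ranking 11 at best, in pancreas. Where both wells were detected there, they differed by a median of 1.77 to 4.13 cycles, against 0.256 to 0.780 cycles in the 8 tissues. These medians rest on 5 to 18 pairs per library, against 28 to 77 pairs in the 8 tissues. The lowest, 1.77 in salivary gland, rests on 5 pairs. On card A the correlation at this offset was between -0.104 and 0.152 over all 17 libraries.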
